A study of Mus musculus with 12 samples.

Results

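Bone marrow stem and progenitor cells that carried both a CBL and a RUNX1 mutation were set against cells that carried the RUNX1 mutation alone, which asks what mutant CBL adds on a RUNX1 mutant background. The comparison was described over the genes with 1 TPM or more in at least 2 of the 4 libraries concerned, where TPM is the deposited level, scaled for transcript length and library size. This left 11898 of the 28987 genes in the deposited table.

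The double mutant group held 2 libraries of bone marrow HSPC (hematopoietic stem and progenitor cells) labelled CBL/RUNX1 mutant, and the RUNX1 mutant group held 2 libraries labelled RUNX1 mutant. CBL mutant HSPC (2 libraries) and wild-type HSPC (2 libraries) are used below to show mutant CBL without mutant RUNX1. Wild-type cells labelled Ly6G+ (2 libraries), after a marker of mature neutrophils, are cited for a few genes. All groups were on the C57BL/6 strain background. The HSPC came from individual mice by a CD117 (Kit) positive selection kit, and the mutant clone was then sorted by flow cytometry. The alleles, the way they were introduced, the ages of the mice and the marker of the sort are not given in the sources used here. Each p-value below measures the spread between 2 libraries a group.

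CBL is a ubiquitin ligase that binds activated receptor tyrosine kinases such as KIT and FLT3 through adaptor proteins and marks them for removal, and mutations that disable it in myeloid leukemia prolong signalling from these receptors. RUNX1 is the DNA-binding subunit of core binding factor, which pairs with CBFB, and is needed for megakaryocyte, lymphoid and granulocyte maturation. Both genes are mutated in myelodysplastic syndrome and in the leukemias that follow it.

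The 2 RUNX1 mutant libraries differed from each other about as much as either did from the double mutant libraries. On the log2(TPM + 1) scale, after scaling between libraries by the trimmed mean of M values (TMM), the SD over genes of the difference between libraries was 0.360 for the double mutant pair, 0.721 for the RUNX1 mutant pair and 0.686 to 0.794 for the 4 pairs across groups. The 8 stem and progenitor markers, Cd34, Kit, Flt3, Gata2, Meis1, Myb, Erg and Hlf, were all above 0 in each of the 4 libraries and summed to 604 and 474 TPM in the double mutant libraries, against 1225 TPM in RUNX1 mutant library 1 and 275 TPM in RUNX1 mutant library 2. The 8 neutrophil markers took 8.99% and 10.2% of all TPM in the double mutant libraries, against 14.8% in RUNX1 mutant library 1 and 31.5% in library 2. The libraries labelled HSPC therefore held granulocyte RNA beside Kit and Cd34. Among the 4 compared, RUNX1 mutant library 1 had the highest sum of progenitor markers and library 2 that of neutrophil markers. In such bulk samples fewer cells of a type and less RNA per cell cannot be told apart. Results are accordingly given against each RUNX1 mutant library.

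No gene passed limma's moderated test at an adjusted p under 0.05 when the 4 libraries were fitted alone (0% of 11898), and the smallest adjusted p was 0.0640. At an unadjusted p under 0.05 there were 2351 genes (19.8%). When all 8 HSPC libraries were fitted together, with 1 estimate of the spread shared by groups that spread unequally, 1181 of 12421 genes passed (9.51%), 734 of them higher (5.91%) and 447 lower (3.60%) in the double mutant. With array weights in the same fit the count was 58. In the 4-library fit the count was 3116 without RUNX1 mutant library 1 and 2008 without library 2, where the lone RUNX1 mutant library is assumed to vary like the double mutant pair, and 0 without either double mutant library. An exact permutation test of 2 against 2 libraries cannot go below a two-sided p of 0.333. The values below are therefore descriptions of 4 libraries, and "higher in both" or "lower in both" means that both double mutant libraries lay on one side of both RUNX1 mutant libraries. Of all 11898 genes, 29.2% were higher in both and 25.7% lower in both, so that the groups lay apart at 54.9%. Against RUNX1 mutant library 1 alone, both double mutant libraries were higher at 43.5% and lower at 42.2% of all genes. Against library 2 alone, the shares were 43.7% and 41.6%. The gap of a gene is the log2 distance between the nearest libraries of both groups. Levels are printed as deposited TPM, whereas orders, gaps and log2 differences were taken after scaling.

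**Figure D1:**
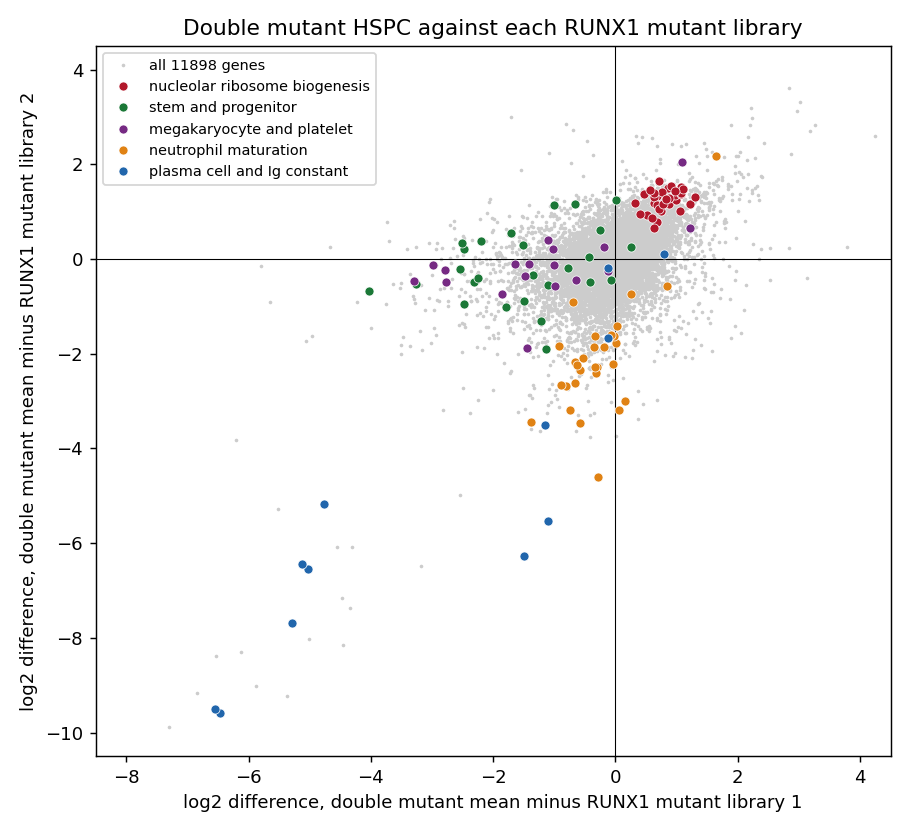
Each point is a gene, plotted by the log2 difference between the double mutant mean and RUNX1 mutant library 1 (x axis) and library 2 (y axis), on the TMM-scaled log2(TPM + 1) scale; 1 gene lies beyond the axes. Nucleolar genes sit in the upper right, above both libraries, the stem, progenitor and megakaryocyte genes spread to the left along the x axis, the neutrophil genes run down the y axis, and immunoglobulin constant genes lie low against both.

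The transcript that stood furthest apart was a pseudogene of Cbl. Gm15272 is annotated as a processed pseudogene at chr10:24514279-24514511 on the minus strand (GRCm38). It had 825 and 863 TPM in the double mutant libraries, against 1.23 and 0 TPM in the RUNX1 mutant libraries, a log2 difference of 9.15 ± 0.38 (SE, n = 2 each) with an adjusted p of 0.0640, the smallest of all genes. It lies outside the rule by which genes are named below, because it is a predicted gene, and is shown because its values were seen to stand apart. It was as sharply split on the wild-type RUNX1 background, at 495 and 676 TPM in CBL mutant HSPC and 0.954 and 0 TPM in wild-type HSPC. Its 233 bases align over their whole length to the last stretch of the Cbl coding sequence, bases 2482 to 2718 of transcript Cbl-201, which lie in 1 exon at chr9:44151445-44151681 and end with the stop codon. The aligned stretches are shown because the transcript with the widest gap is nearly a copy of the end of Cbl; both are 5′ to 3′, from the GENCODE M21 transcripts, and capitals mark bases that differ from, or are missing in, the other sequence.
Gm15272: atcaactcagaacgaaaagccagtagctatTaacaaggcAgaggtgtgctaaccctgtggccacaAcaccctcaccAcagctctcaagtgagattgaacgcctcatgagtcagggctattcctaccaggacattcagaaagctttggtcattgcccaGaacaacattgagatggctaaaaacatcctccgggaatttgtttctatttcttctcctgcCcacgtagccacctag
Cbl: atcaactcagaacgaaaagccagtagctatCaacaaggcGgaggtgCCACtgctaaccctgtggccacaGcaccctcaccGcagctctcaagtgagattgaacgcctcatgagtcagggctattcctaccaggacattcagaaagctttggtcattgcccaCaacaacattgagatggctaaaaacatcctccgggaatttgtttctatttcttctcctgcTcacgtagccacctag
The alignment held 6 mismatches and 4 gap bases over 237 columns, an identity of 95.8%. Of the other genes that align to Gm15272 over 200 columns or more, 3 are in the deposited table, Gm16355, Gm16100 and Gm17065, and all were listed at 0 TPM in every HSPC library. The deposited levels do not separate reads of the endogenous gene, of its copies and of any introduced Cbl sequence.

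Cbl itself (chr9:44142976-44234049, minus strand) had 103 and 115 TPM in the double mutant libraries, against 24.9 and 32.1 TPM in the RUNX1 mutant libraries. Its log2 difference was 1.82 ± 0.32 (SE, n = 2 each; adjusted p = 0.160, 0.0221 with all 8 libraries, and 0.0842 with array weights in that fit). The groups did not overlap, and CBL mutant HSPC at 73.7 and 81.3 TPM likewise lay above wild-type HSPC at 31.0 and 17.9 TPM. Runx1 (chr16:92601466-92826149) had 257 and 248 TPM in the double mutant libraries, against 170 and 45.3 TPM in the RUNX1 mutant libraries, so that the level of the gene mutated in both groups also differed between them (log2 difference 1.42 ± 0.48, adjusted p = 0.226). CBL mutant HSPC had 12.2 and 16.4 TPM and wild-type HSPC 12.7 and 11.3 TPM of Runx1. Runx3, a paralog of Runx1, followed the same order, with 304 and 284 TPM in the double mutant and 173 and 42.4 TPM in the RUNX1 mutant libraries. Whether reads of Runx1 and Runx3 were shared was not tested, and the deposited levels do not separate endogenous Runx1 from any introduced Runx1 sequence. Runx1 in RUNX1 mutant library 2 was the lowest of the 4, which is the library of these 4 with the highest sum of neutrophil markers. Ngfr, a nerve growth factor receptor that is used in truncated form as a cell surface marker of introduced genes, had 92.0 and 92.6 TPM in the double mutant and 49.6 and 168 TPM in the RUNX1 mutant libraries, so the groups overlapped. It had 0.0300 and 0.0431 TPM in CBL mutant and 160 and 136 TPM in wild-type HSPC, and was thus high in wild-type cells too and near 0 in CBL mutant cells.

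**Figure D2:**
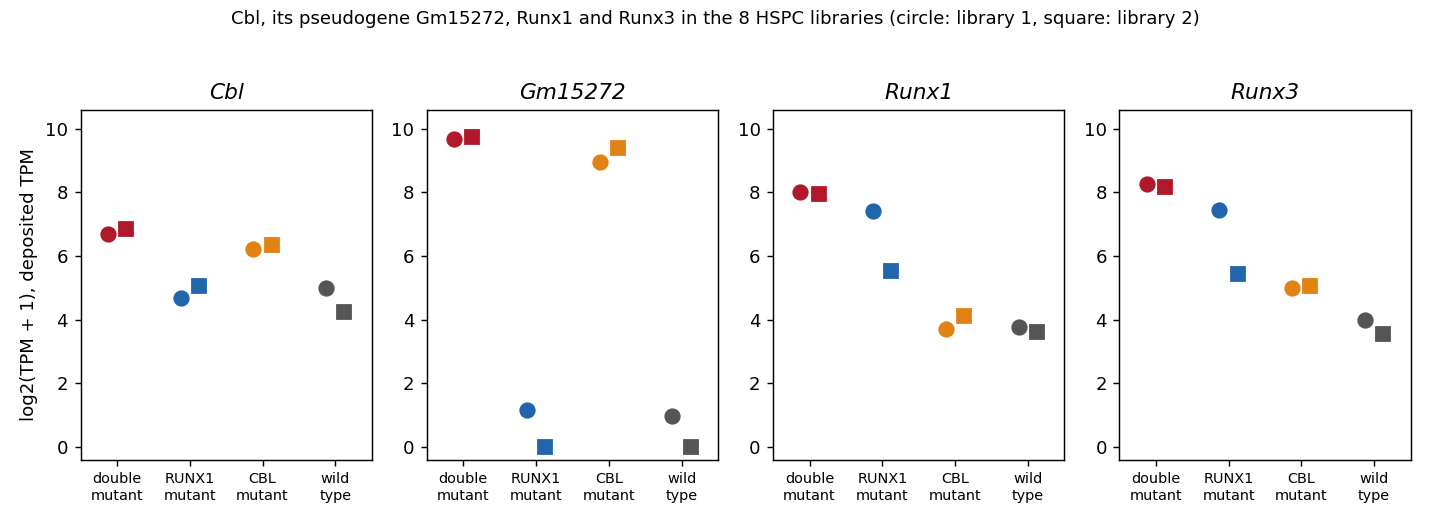
Deposited levels of Cbl, Gm15272, Runx1 and Runx3 as log2(TPM + 1) (y axis) in the HSPC groups (x axis), with 1 point a library. Cbl and Gm15272 are high in both groups that carry mutant CBL, and Runx1 and Runx3 are high in both groups that carry mutant RUNX1, with RUNX1 mutant library 2 below library 1.

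A gap of 1 or more was held by 119 genes higher and 124 genes lower in both double mutant libraries. Those with the widest gaps upward were mixed in function. Predicted genes were left out of the ranking that follows. The 12 widest, among genes with a mean of 10 TPM or more in the higher group, were Ccnd1, Saa3, Fn1, Fbp1, Pla2g7, Chchd10, Mnd1, Fos, Clec4d, Spp1, Adamtsl4 and Hist1h4c. Ccnd1 (chr7:144929931-144939925), the D-type cyclin that carries growth factor signals into the cell cycle, had 35.7 and 22.1 TPM in the double mutant libraries and 2.25 and 2.42 TPM in the RUNX1 mutant libraries. Its log2 difference was 3.04 ± 0.30 (SE, n = 2 each, adjusted p = 0.160). Both RUNX1 mutant libraries sat close together here, unlike at most progenitor genes. Fbp1, the fructose bisphosphatase of gluconeogenesis, had 76.6 and 92.7 TPM against 18.5 and 14.4 TPM in the RUNX1 mutant. Mnd1, a partner of Hop2 in meiotic recombination, had 25.3 and 23.6 TPM against 5.71 and 4.98 TPM in the RUNX1 mutant. Chchd10, a protein of the mitochondrial intermembrane space, had 38.8 and 52.4 TPM against 10.4 and 7.67 TPM in the RUNX1 mutant. In these 4 genes the libraries of each group lay near each other and far from the other group.

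The double mutant libraries were less alike at several others. Saa3, an acute phase serum amyloid A, had 38.8 and 17.5 TPM in the double mutant and 2.61 and 1.32 TPM in the RUNX1 mutant. Fn1 (fibronectin) had 33.5 and 13.6 TPM against 2.05 and 1.20 TPM in the RUNX1 mutant. Spp1 (osteopontin) had 48.4 and 9.71 TPM against 0.195 and 2.17 TPM in the RUNX1 mutant. Double mutant library 1 was the higher of its pair for each of these matrix and acute phase genes, and Pla2g7, a phospholipase of macrophages, did likewise at 26.3 and 14.2 TPM against 1.95 and 2.66 TPM in the RUNX1 mutant. Adjusted p for the 12 genes was 0.160 to 0.185 in the 4 libraries. All 12 passed with all 8 libraries, and 4 of them, Mnd1, Fbp1, Clec4d and Chchd10, with array weights in that fit, where the adjusted p of the 12 was 0.00805 to 0.149. Of all 12421 genes, 9.51% passed in that fit, and 58 genes with array weights. The 12 were chosen by their gap in the same 4 libraries, so their passing is no independent support.

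**Figure D3:**
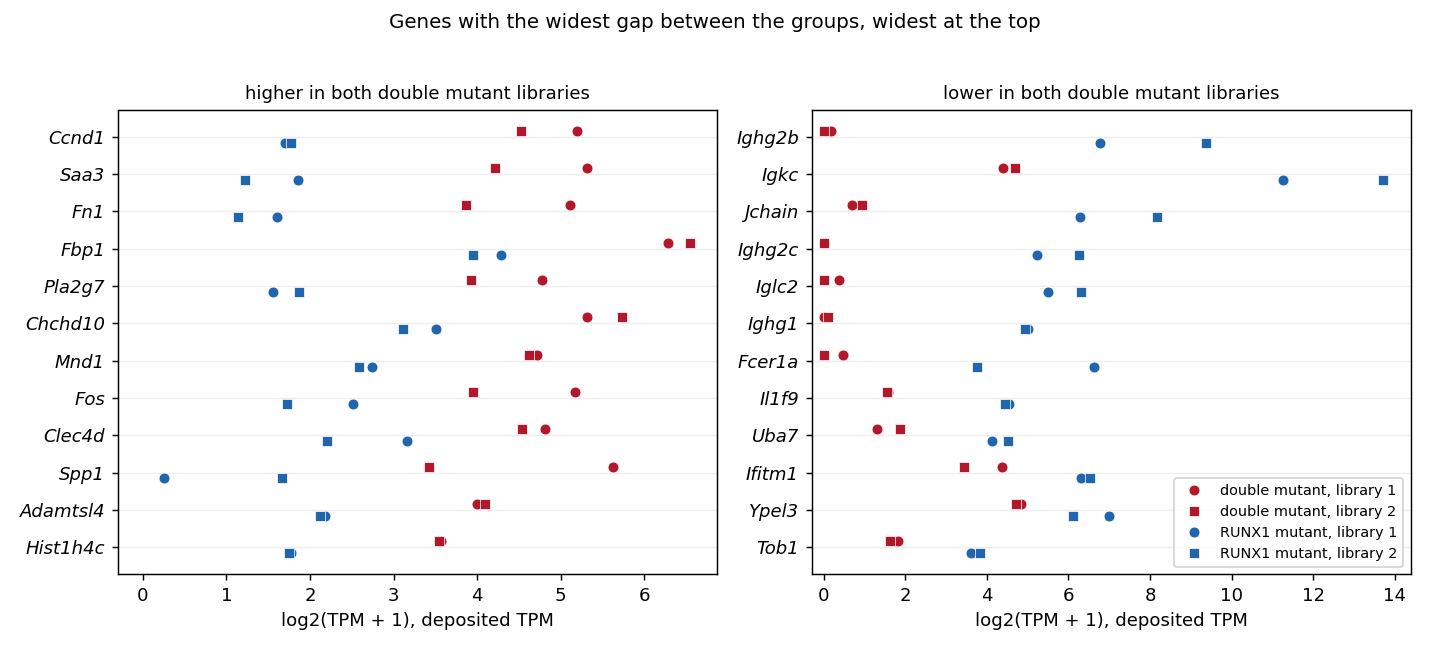
Deposited levels, log2(TPM + 1), of the 24 genes with the widest gap, 12 higher (left) and 12 lower (right) in both double mutant libraries, with 1 point a library and the widest gap at the top. In each row both double mutant points lie on one side of both RUNX1 mutant points.

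Genes that report signalling through RAS and MAPK were higher in part in the double mutant. CBL restrains receptors that feed this pathway, and its feedback inhibitors are commonly read as its output. Of 17 listed genes 13 passed the level filter, of which 7 were higher in both and 1 lower in both, beside 29.2% and 25.7% of all genes. Against RUNX1 mutant library 1, 7 were higher and 4 lower in both double mutant libraries, and against library 2, 12 were higher and 1 lower. Over all genes 43.5% were higher and 42.2% lower than library 1, and 43.7% and 41.6% than library 2. The median log2 difference was 0.69, beside -0.02 over all genes, and it was 0.28 against library 1 and 0.86 against library 2. Dusp6, a phosphatase of ERK, had 20.6 and 21.7 TPM in the double mutant libraries, against 3.76 and 6.06 TPM in the RUNX1 mutant libraries. Etv5, an ETS factor induced by ERK, had 10.1 and 5.26 TPM against 1.63 and 1.17 TPM in the RUNX1 mutant. Both stood clear of both RUNX1 mutant libraries, as Ccnd1 did. Spry2 and Spred2, which inhibit RAS activation, had smaller gaps, at 14.2 and 13.4 TPM against 10.5 and 5.61 TPM in the RUNX1 mutant for Spry2, and at 19.0 and 12.9 TPM against 9.46 and 7.92 TPM in the RUNX1 mutant for Spred2. Myc overlapped, with 175 and 95.9 TPM in the double mutant and 194 and 61.5 TPM in the RUNX1 mutant. Phlda1 was the member lower in both, with 3.06 and 2.15 TPM against 9.43 and 7.04 TPM in the RUNX1 mutant. With all 8 libraries Ccnd1, Etv5 and Dusp6 passed as higher and Phlda1 as lower, but none of the 4 passed with array weights in that fit, where the adjusted p was 0.0503 for Ccnd1, 0.202 for Etv5, 0.127 for Dusp6 and 0.0667 for Phlda1.

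Immediate early genes, which respond within minutes to growth factors and to stress of cell handling, were split. Of 13 that passed the filter, 5 were higher in both and 3 lower in both, beside 29.2% and 25.7% of all genes. Their median log2 difference was 0.15. Fos had 35.1 and 14.5 TPM in the double mutant libraries, against 4.73 and 2.32 TPM in the RUNX1 mutant libraries. Jun had 7.55 and 6.70 TPM against 2.08 and 0.940 TPM in the RUNX1 mutant, and Dusp1, a MAPK phosphatase, had 20.6 and 16.7 TPM against 8.26 and 3.94 TPM in the RUNX1 mutant. Btg2, an antiproliferative gene of the same list, went the other way, with 9.21 and 4.43 TPM in the double mutant and 19.2 and 19.5 TPM in the RUNX1 mutant.

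Adaptors and receptors around CBL showed no common direction. Of 26 members of the CBL family and its partners that passed the filter, 4 were higher in both and 8 lower in both. The shares of all genes were 29.2% and 25.7%. The median log2 difference of the 26 was -0.20. Grap, a GRB2-related adaptor, had 13.03 and 18.1 TPM in the double mutant, against 5.58 and 1.55 TPM in the RUNX1 mutant. Cd2ap, an adaptor that binds CBL, had 9.96 and 7.23 TPM against 4.37 and 2.49 TPM in the RUNX1 mutant. Syk, a kinase that CBL can ubiquitinate, was lower in both, with 49.7 and 45.8 TPM against 73.0 and 70.6 TPM in the RUNX1 mutant. Cblb, the closest paralog, was low and overlapped, at 4.07 and 3.45 TPM against 6.39 and 2.48 TPM in the RUNX1 mutant. Of 18 growth factor and cytokine receptors, 3 were higher in both and 6 lower in both, beside the same 29.2% and 25.7% of all genes. Csf3r, the receptor for G-CSF, had 88.6 and 91.3 TPM in the double mutant and 163 and 134 TPM in the RUNX1 mutant libraries (log2 difference -0.80 ± 0.16, adjusted p = 0.161). It is also a member of the neutrophil maturation list described below. Ifngr1, a chain of the interferon gamma receptor, had 297 and 376 TPM against 217 and 118 TPM in the RUNX1 mutant. Kit and Flt3 followed the progenitor genes described below.

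Genes for making ribosomes were higher in the double mutant against both RUNX1 mutant libraries. Nucleolar proteins process ribosomal RNA and assemble it with ribosomal proteins, which sets how much protein a cell can make. All 33 nucleolar genes that passed the filter, of 34 listed, were higher in both double mutant libraries than in both RUNX1 mutant libraries, against 29.2% of all genes. Their median log2 difference was 1.02, and it was 0.76 against RUNX1 mutant library 1 and 1.29 against library 2. This list was added after such genes had been seen among those with small p, so its count carries no test. Nhp2, a subunit of H/ACA ribonucleoproteins, had 269 and 274 TPM in the double mutant libraries, against 123 and 85.5 TPM in the RUNX1 mutant libraries. Nop56, a core protein of C/D ribonucleoproteins, had 333 and 330 TPM against 175 and 90.7 TPM in the RUNX1 mutant. Npm1 (nucleophosmin) had 1290.5 and 1256 TPM against 683 and 493 TPM in the RUNX1 mutant. In each the double mutant pair was nearly identical in deposited TPM, where RUNX1 mutant library 1 came next and library 2 was lowest. After scaling, the RUNX1 mutant libraries were alike for Nhp2, at log2 levels of 6.75 and 6.73. Ncl (nucleolin), Fbl (fibrillarin), Dkc1 (dyskerin) and Nolc1 were likewise higher in both, with log2 differences of 1.17, 1.02, 1.01 and 1.23. The smallest difference of the list was that of Polr1a, the large subunit of RNA polymerase I, at 17.2 and 16.5 TPM against 11.8 and 8.18 TPM in the RUNX1 mutant.

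Ribosomal protein genes had a smaller median difference. Of 74 that passed the filter 70 were higher in both and none lower in both, beside 29.2% and 25.7% of all genes. Their median log2 difference was 0.44 (0.36 against library 1 and 0.54 against library 2). Rpl27 had 218 and 257 TPM in the double mutant libraries, against 121 and 101 TPM in the RUNX1 mutant libraries (log2 difference 0.9998 ± 0.196). Their summed level was 189375 and 183313 TPM in the double mutant and 162969 and 100820.0 TPM in the RUNX1 mutant libraries. Because TPM is a share of each library, and S100a8 and S100a9 alone took 8.11% and 9.54% of all TPM in the double mutant libraries against 13.3% and 27.0% in the RUNX1 mutant libraries, the sums move with those genes; the log2 differences are after scaling. Many ribosomal protein genes have processed copies that may share reads.

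Enzymes that supply nucleotides and one-carbon units followed the nucleolar genes. Of 16 genes of serine synthesis, the folate cycle and purine synthesis, 13 were higher in both and none lower in both. The shares over all genes were 29.2% and 25.7%. The median log2 difference of the 16 was 0.85. This list too was added after values had been seen, so its count carries no test. Mthfd1l, a mitochondrial formate-producing enzyme, had 53.0 and 46.7 TPM in the double mutant libraries, against 17.7 and 13.8 TPM in the RUNX1 mutant libraries. Shmt2, the mitochondrial serine hydroxymethyltransferase, had 126 and 112 TPM against 62.0 and 36.6 TPM in the RUNX1 mutant, and Phgdh, the first enzyme of serine synthesis, had 163 and 160 TPM against 92.9 and 45.8 TPM in the RUNX1 mutant. Tyms and Mthfd2 overlapped between the groups, at 77.3 and 81.9 TPM against 65.6 and 83.4 TPM in the RUNX1 mutant for Tyms, and at 36.8 and 30.4 TPM against 25.9 and 37.2 TPM in the RUNX1 mutant for Mthfd2.

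Most nuclear genes for respiratory chain subunits were higher in the double mutant. Of 77 that passed the filter 62 were higher in both and none lower in both, beside 29.2% and 25.7% of all genes, with a median log2 difference of 0.50 (0.62 against library 1 and 0.39 against library 2). Ndufa5, of complex I, had 261 and 260 TPM in the double mutant libraries, against 139 and 114 TPM in the RUNX1 mutant libraries. Of the 13 mitochondrially encoded genes 5 were higher in both, a share near the 29.2% of all genes, and 8 overlapped, with a median of 0.22; mt-Co1 was among those that overlapped, at 4990.1 and 5740.4 TPM against 5529 and 4676 TPM in the RUNX1 mutant. Prohibitins, ring-forming scaffolds of the inner membrane, were higher in both, with Phb at 232 and 265 TPM against 145 and 93.7 TPM in the RUNX1 mutant and Phb2 at 351 and 338 TPM against 198 and 142 TPM in the RUNX1 mutant. The other genes of fission and fusion were mixed, so that the 14 genes of that list had a median of 0.22, with 7 higher in both and 1 lower in both. Of 18 genes of glycolysis 6 were higher and 2 lower in both, with Ldha at 658 and 678 TPM against 435 and 357 TPM in the RUNX1 mutant. Of 19 antioxidant genes 8 were higher and none lower in both, with Sod1 at 508 and 470 TPM against 323 and 249 TPM in the RUNX1 mutant.

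Cell cycle genes took opposite sides of the 2 RUNX1 mutant libraries. All 27 were higher in both double mutant libraries than in RUNX1 mutant library 1, whereas 8 were higher and 19 lower than in library 2. Over all genes 43.5% were higher than library 1, 43.7% higher and 41.6% lower than library 2, and 29.2% higher than both. The medians were 0.62 against library 1 and -0.41 against library 2. The 8 that were higher than both included the helicase subunits Mcm2, at 120 and 110 TPM against 82.4 and 71.7 TPM in the RUNX1 mutant, and Mcm3, at 149 and 140 TPM against 107 and 86.0 TPM in the RUNX1 mutant. Mki67, a marker of cycling cells, had 58.1 and 60.4 TPM in the double mutant libraries and lay between RUNX1 mutant library 1 at 52.4 TPM and library 2 at 86.5 TPM. No direction over both libraries can be given for mitotic genes.

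**Figure D4:**
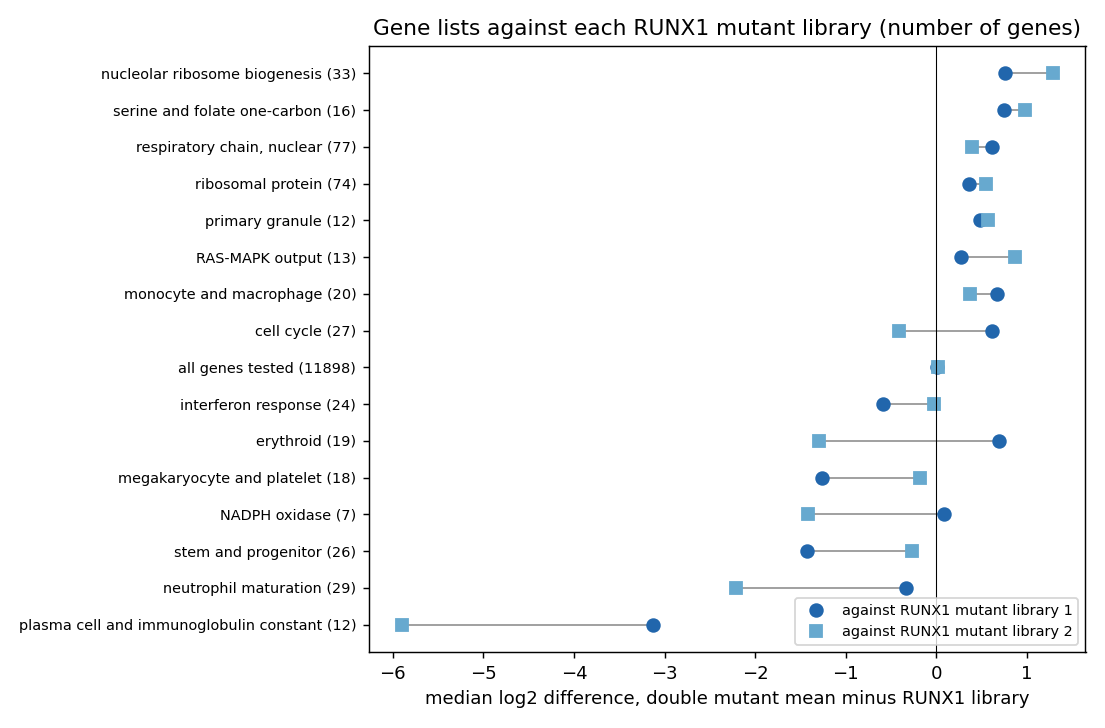
Median over the genes of each list of the log2 difference between the double mutant mean and RUNX1 mutant library 1 (circles) or library 2 (squares), on the TMM-scaled log2(TPM + 1) scale, with the number of genes that passed the level filter in brackets. Nucleolar, one-carbon, respiratory, ribosomal and primary granule lists lie above 0 against both libraries, cell cycle and erythroid lists change side, and stem and neutrophil lists are low mainly against 1 library each.

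Immunoglobulin genes stood furthest below the RUNX1 mutant. Igkc, the kappa light chain constant region, had 19.9 and 24.9 TPM in the double mutant libraries, against 2443 and 13353 TPM in the RUNX1 mutant libraries. Jchain, which joins secreted IgA and IgM, had 0.604 and 0.911 TPM against 77.1 and 288 TPM in the RUNX1 mutant. Ighg1 had 0 and 0.0690 TPM against 31.2 and 29.6 TPM in the RUNX1 mutant, and Ighg2c was listed at 0 TPM in both double mutant libraries against 36.5 and 75.1 TPM in the RUNX1 mutant. Over all genes 25.7% were lower and 29.2% higher in both. Of the 12 plasma cell and immunoglobulin constant genes that passed the filter 10 were lower in both and 1, Sdc1, higher in both. The 12 variable and joining segments that passed were all lower in both, and summed to 39.4 and 17.0 TPM against 1244 and 5780 TPM in the RUNX1 mutant. RUNX1 mutant library 2 had more Igkc, Jchain and Ighg2c than library 1, and about as much Ighg1. The 4 plasma cell markers (Jchain, Sdc1, Mzb1 and Tnfrsf17) were above 0 in each of these 4 libraries and summed to 5.93 and 4.12 TPM in the double mutant and 81.8 and 306 TPM in the RUNX1 mutant libraries. Jchain made up most of the RUNX1 mutant sums. Mzb1 was also lower in the double mutant, Tnfrsf17 overlapped, and Sdc1 went the other way, at 3.61 and 2.97 TPM against 1.64 and 2.36 TPM in the RUNX1 mutant. Cd79a, a signalling chain of the B cell receptor, had 4.49 and 0.287 TPM in the double mutant and 2.65 and 7.42 TPM in the RUNX1 mutant libraries. The other B cell markers reported, Ms4a1 and Pax5, were at or below 1.12 TPM in all 4 libraries, with Ms4a1 at 0 in double mutant library 2. The part of antibody-secreting cells in these values was not tested.

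Other genes that stood lowest were mixed in function, and whether they shared a cell type was not tested. Fcer1a, the alpha chain of the IgE receptor of mast cells and basophils, had 0.384 and 0 TPM in the double mutant libraries, against 97.8 and 12.6 TPM in the RUNX1 mutant libraries. The 4 mast cell and basophil markers (Ms4a2, Fcer1a, Mcpt8 and Cpa3) summed to 141 and 119 TPM in the double mutant and to 1406 and 108 TPM in the RUNX1 mutant libraries, with Fcer1a at 0 in double mutant library 2; RUNX1 mutant library 1 thus held by far the most, but Fcer1a was well below library 2 as well. Il1f9, an interleukin 1 family cytokine, had 1.97 and 1.94 TPM against 22.4 and 20.7 TPM in the RUNX1 mutant, with both pairs tight (log2 difference -3.00 ± 0.23, n = 2 each, adjusted p = 0.160). Uba7, the activating enzyme for ISG15, had 1.47 and 2.62 TPM against 16.4 and 21.9 TPM in the RUNX1 mutant. Ifitm1, an interferon-induced membrane protein, had 19.5 and 9.89 TPM against 78.3 and 91.9 TPM in the RUNX1 mutant. In deposited TPM these 3 genes were at like levels in both RUNX1 mutant libraries. So was Tob1, an antiproliferative protein related to Btg2, at 2.55 and 2.08 TPM against 11.2 and 13.1 TPM in the RUNX1 mutant. After scaling, library 2 lay above library 1, with log2 levels of 6.83 and 6.10 for Ifitm1 and 4.72 and 4.35 for Il1f9. Ypel3, a growth-suppressing gene, had 27.6 and 25.3 TPM against 127 and 68.1 TPM in the RUNX1 mutant. Il1f9, Ifitm1 and Ypel3 were also higher in wild-type Ly6G+ cells than in wild-type HSPC. Il1f9 had 208 and 268 TPM in Ly6G+ cells and 29.6 and 27.1 TPM in HSPC. Ifitm1 had 414 and 519 TPM against 70.1 and 73.5 TPM, and Ypel3 had 294 and 257 TPM against 33.1 and 31.2 TPM. The part of neutrophils in their lower levels was not tested. The adjusted p of the 12 leading lower genes was 0.0714 to 0.160. All 12 passed with all 8 libraries, and 11 with array weights in that fit, where Ifitm1 had an adjusted p of 0.0725. Of all 12421 genes, 9.51% passed in that fit, and 58 genes with array weights. These 12 too were chosen by their gap in the same 4 libraries, so their passing is no independent support. Other interferon genes mostly overlapped between the groups. Of 24 on the interferon response list 4 were lower and 1 higher in both, beside 25.7% and 29.2% of all genes, and 19 overlapped. Their median was -0.39, with -0.59 against library 1 and -0.02 against library 2, and 0.14 without double mutant library 2.

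Stem and progenitor genes were lower mainly against RUNX1 mutant library 1. Of 26 that passed the filter 23 were lower in both double mutant libraries than in library 1 and 13 than in library 2, 12 were lower than both and 1 was higher than both. Over all genes 42.2% were lower than library 1, 41.6% than library 2 and 25.7% than both. The median log2 difference was -1.42 against library 1 and -0.26 against library 2. Kit, the receptor used for the selection, had 50.8 and 38.0 TPM in the double mutant libraries, which lay between RUNX1 mutant library 1 at 229 TPM and library 2 at 26.2 TPM. Meis1, a HOX cofactor of stem cells, had 8.91 and 4.45 TPM in the double mutant libraries, against 78.2 and 7.60 TPM in the RUNX1 mutant libraries. Gata2, a stem cell factor, had 32.5 and 17.9 TPM against 155 and 16.4 TPM in the RUNX1 mutant. For each of these library 1 was far above the other libraries. Prom1, a surface protein of progenitors, was lower against both, at 7.52 and 9.05 TPM against 21.6 and 26.3 TPM in the RUNX1 mutant (log2 difference -1.51 ± 0.32, adjusted p = 0.163). Tal1, a stem cell and erythroid factor, had 14.6 and 7.62 TPM against 43.6 and 17.5 TPM in the RUNX1 mutant. Erg and Myb, at 77.4 and 74.5 TPM and at 197 and 185 TPM in the double mutant, lay between the RUNX1 mutant libraries.

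Megakaryocyte genes followed the progenitor genes. Of 18, 14 were lower in both double mutant libraries than in library 1 and 7 than in library 2, with medians of -1.26 and -0.18. The shares of all genes were 42.2% and 41.6%. Itga2b, the platelet integrin alpha chain, had 53.6 and 37.0 TPM in the double mutant libraries, against 400 and 38.4 TPM in the RUNX1 mutant libraries. Gp1bb, of the von Willebrand factor receptor, was lower against both at 0.865 and 0.915 TPM against 4.67 and 4.72 TPM in the RUNX1 mutant. Selp, the platelet and endothelial P-selectin, was higher in both at 34.7 and 21.9 TPM against 12.5 and 13.4 TPM in the RUNX1 mutant.

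Neutrophil maturation genes were lower mainly against RUNX1 mutant library 2. These encode secondary and tertiary granule proteins and the surface receptors of late granulocytes. Of 29, 28 were lower in both double mutant libraries than in library 2 and 17 than in library 1, and the 17 lower than both compare with 1, Clec4d, higher than both. Over all genes 41.6% were lower than library 2, 42.2% than library 1 and 25.7% than both. The median log2 difference was -2.22 against library 2 and -0.33 against library 1. Ltf (lactoferrin) had 720 and 402 TPM in the double mutant libraries, against 1560 and 4615 TPM in the RUNX1 mutant libraries. Camp, the cathelicidin of secondary granules, had 4269.6 and 3366 TPM against 7383 and 19063 TPM in the RUNX1 mutant. Ly6g, which marks mature neutrophils, had 25.2 and 14.2 TPM in the double mutant libraries, where RUNX1 mutant library 1 had 26.2 TPM and library 2 had 384 TPM. Both double mutant libraries and RUNX1 mutant library 1 were thus alike in Ly6g, and library 2 stood apart. Cxcr2, a chemokine receptor of mature neutrophils, was lower against both, with 19.6 and 15.7 TPM against 38.2 and 51.8 TPM in the RUNX1 mutant. Clec4d, a C-type lectin of myeloid cells, had 27.1 and 22.2 TPM in the double mutant and 7.93 and 3.62 TPM in the RUNX1 mutant. The 7 subunits of the NADPH oxidase and its partners showed the same split, with medians of 0.08 against library 1 and -1.42 against library 2; Cybb, its catalytic subunit, had 140 and 106 TPM against 189 and 615 TPM in the RUNX1 mutant.

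Primary granule genes, which are made at the promyelocyte stage, went the other way against both libraries. Of 12, 9 were higher in both and 1 lower in both, beside 29.2% and 25.7% of all genes. Their median log2 difference was 0.52 (0.48 against library 1 and 0.57 against library 2). Mpo (myeloperoxidase) had 4796 and 5049 TPM in the double mutant libraries, against 3116 and 2371 TPM in the RUNX1 mutant libraries. Ctsg (cathepsin G) had 2596 and 3150 TPM against 1422 and 1028 TPM in the RUNX1 mutant (log2 difference 1.15 ± 0.19, adjusted p = 0.160). Ms4a3, a membrane protein of granulocyte and monocyte progenitors, had 1130.2 and 1557 TPM against 662 and 569 TPM in the RUNX1 mutant. The exception was Serpinb1a, an inhibitor of neutrophil elastase, at 204 and 261 TPM against 388 and 418 TPM in the RUNX1 mutant. Cebpa, a factor of early granulocyte commitment, was higher in both at 65.0 and 52.8 TPM against 34.3 and 34.6 TPM in the RUNX1 mutant, and Stat3 was lower in both at 82.1 and 98.6 TPM against 154 and 105 TPM in the RUNX1 mutant. Stefin A genes, cysteine protease inhibitors of granulocytes that sit in a cluster of near-identical copies and may share reads, were higher in both for 5 of 7 and lower in both for none, with BC100530 at 320 and 633 TPM against 117 and 105 TPM in the RUNX1 mutant.

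Monocyte and macrophage genes were higher in part. Of 20, 11 were higher in both and 1, Cx3cr1, lower in both, beside 29.2% and 25.7% of all genes. Their median was 0.59. F13a1, the factor XIII A chain of monocytes, had 385 and 506 TPM in the double mutant libraries, against 165 and 71.8 TPM in the RUNX1 mutant libraries. C1qb, a complement chain of macrophages, had 26.7 and 18.8 TPM against 8.85 and 9.06 TPM in the RUNX1 mutant. Ly6c2, a marker of inflammatory monocytes, lay between the RUNX1 mutant libraries, at 611 and 606 TPM with 282 TPM in library 1 and 1028 TPM in library 2. Csf1r, the receptor for M-CSF, had 56.0 and 23.5 TPM in the double mutant and 24.98 and 23.1 TPM in the RUNX1 mutant, a difference carried by double mutant library 1. Erythroid genes changed side between the RUNX1 mutant libraries, with medians of 0.69 against library 1 and -1.30 against library 2 over 19 genes; Tfrc, the transferrin receptor that dividing cells also use, was the 1 higher in both, at 79.5 and 60.9 TPM against 21.4 and 31.7 TPM in the RUNX1 mutant. Of 18 genes of the NF-kB pathway 1 was higher and 8 lower in both, with a median of -0.23. Of 13 BCL2 family genes 5 were higher and 2 lower in both. Both lists stand beside the same 29.2% and 25.7% of all genes. Pmaip1 (Noxa), of the BCL2 family, had 11.7 and 12.7 TPM against 5.59 and 4.12 TPM in the RUNX1 mutant.

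Mutant CBL could also be followed without mutant RUNX1, in CBL mutant against wild-type HSPC, which share no library with the comparison above. Across the 11898 genes the log2 differences of the RUNX1 mutant background and those of the wild-type background correlated with Pearson's r of 0.354 and Spearman's rho of 0.183, and r was 0.194 over 11875 genes without immunoglobulin genes; genes are not independent replicates and no p is given. Of the 12 leading higher genes, 6 had a positive difference on the wild-type background and only Ccnd1 one past 1, at 26.3 and 15.2 TPM in CBL mutant HSPC and 2.98 and 2.78 TPM in wild-type HSPC. Of the 12 leading lower genes, 11 were also lower in CBL mutant than in wild-type HSPC and 9 by more than 1. These were the immunoglobulin genes, Fcer1a, Il1f9 and Ifitm1; Igkc had 259 and 526 TPM in CBL mutant HSPC and 38636 and 40304 TPM in wild-type HSPC. The nucleolar list had a median of 0.25 on the wild-type background, beside 1.02 on the RUNX1 mutant background. That list and the leading genes were chosen by their values on the RUNX1 mutant background. Larger differences there are thus built in, at least in part, by the choice. Nhp2 had 145 and 156 TPM in CBL mutant HSPC and 109 and 108 TPM in wild-type HSPC. Fos was lower in CBL mutant HSPC (2.45 and 3.43 TPM) than in wild-type HSPC (7.38 and 4.30 TPM), and Tob1 had 19.9 and 18.4 TPM in CBL mutant and 14.9 and 13.8 TPM in wild-type HSPC.

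The difference between the backgrounds was tested as an interaction in the 8 HSPC libraries. Of 12421 genes 2 passed at an adjusted p under 0.05 (0.0161%), Tcf7 and Tcrg-C2, and both were high in CBL mutant HSPC alone. None of the 24 leading genes passed, with smallest adjusted p of 0.0705 among the higher and 0.0818 among the lower ones. Because these 24 were chosen on the RUNX1 mutant side, their interaction values are descriptions and no independent test. For Chchd10 the interaction was 2.64 ± 0.30 (SE, adjusted p = 0.0705), since CBL mutant HSPC had 15.3 and 11.9 TPM and wild-type HSPC 16.04 and 14.8 TPM. For Ccnd1 it was 0.84 ± 0.44 (adjusted p = 0.342), so that no difference between the backgrounds was shown for this gene, nor was an equal one. The interaction shares 1 estimate of the spread over all groups, and the RUNX1 mutant pair spread more than the other pairs. Without RUNX1 mutant library 1 the count was 1262 and without library 2 it was 2051, and it was 0 without any 1 of the other 6 libraries. With the replicate number as a block neither gene passed, and the smallest adjusted p was 0.0608.

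**Figure D5:**
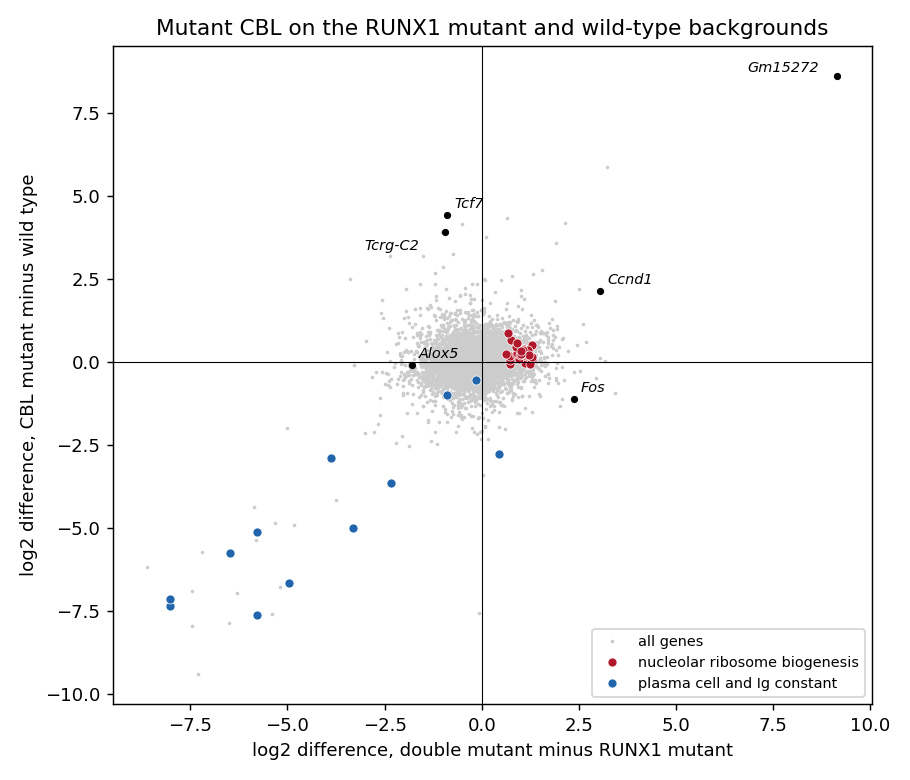
Each point is a gene, plotted by the log2 difference of double mutant minus RUNX1 mutant HSPC (x axis) and of CBL mutant minus wild-type HSPC (y axis), on the TMM-scaled log2(TPM + 1) scale. Gm15272 and Ccnd1 are high on both axes and immunoglobulin constant genes low on both, the nucleolar genes lie near 1 on the x axis and near 0.25 on the y axis, and Tcf7 and Tcrg-C2 are high on the y axis alone. The nucleolar list was chosen after values on the x axis had been seen.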

How the data were processed

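RNA-seq levels of 12 libraries in 6 groups were deposited by the authors as 1 table of TPM (a level per transcript length that sums to a fixed total) for 28987 Ensembl genes. Per the submitters' processing notes, reads were converted with bcl2fastq and CASAVA 1.8 and quantified with kallisto against mm10; the 4 libraries compared sum to 965476 to 975500 TPM, so the depth in reads is unknown and no count test was used. Symbols matched for 27458 IDs. TMM factors (trims 0.3 and 0.05) were computed over genes with 1 TPM or more in at least 2 of the 4 libraries, and log2(scaled TPM + 1) was tested with limma 3.58.1 in R 4.3.3 (trend and robust moderation, Benjamini-Hochberg over all genes). Fold changes on this scale understate low genes. The 4 libraries were fitted alone because the RUNX1 mutant pair spread more than others; the interaction used 8. Genes named are Cbl, Runx1, those that passed, the 12 per direction with the widest gap (mean of 10 TPM or more in the higher group, without predicted genes and receptor segments) and 2 per direction of each of 30 lists by p; others are described as list members or were chosen after their values were seen, and 2 genes are not reported here. The comparison, the lists and the 2 added lists were chosen with earlier results of these data known. Gm15272 was aligned with blastn 2.17.0 to GENCODE M21 transcripts. Fits were tested on simulated data with normal noise, where recovery was required only at equal spread between groups. This does not measure the error rate in these libraries.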

Additional observations from a re-analysis of the deposited data

Results flagged for a closer look

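For 2 genes the difference made by mutant CBL was not the same on both RUNX1 backgrounds by limma's interaction test over 8 HSPC libraries, and neither passed with the replicate number as a block (smallest adjusted p 0.0608). Tcf7, a transcription factor of T cell precursors, had an interaction of -5.28 ± 0.36 log2 units (SE, adjusted p = 0.0122). It had 0.971 and 1.17 TPM in double mutant and 3.71 and 1.92 TPM in RUNX1 mutant HSPC, and 92.8 and 60.0 TPM in CBL mutant and 1.94 and 1.89 TPM in wild-type HSPC. Tcrg-C2, a constant segment of the T cell receptor gamma locus, had an interaction of -4.86 ± 0.30 (adjusted p = 0.0122). It had 0.204 and 0 TPM in double mutant and 1.16 and 1.15 TPM in RUNX1 mutant HSPC, and 26.6 and 24.2 TPM in CBL mutant and 0.497 and 0.624 TPM in wild-type HSPC. Both differences rest on CBL mutant HSPC, and both genes were under 4 TPM in the other 6 libraries. Other T cell genes stood in the same place without passing, such as Tcrg-C1, Themis and Trbj1-3, with an adjusted p of 0.0705 each. The part of T cells in these values was not tested.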

How the results depend on the processing

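The count of genes that passed in the 4 libraries (0) was 19 on unscaled TPM (8 higher, 11 lower), 1 with a pseudocount of 5, 4 with array weights, 1181 in the fit of all 8 HSPC libraries and, added after seeing the data, 58 with array weights there. It stayed 0 with median of ratios scaling, a pseudocount of 0.1, no filter, a filter of 5 TPM, no trend and, added after seeing the data, without immunoglobulin genes. Leaving out 1 library gave 0 to 3116. With the replicate number as a block it was 1; libraries of the same number deviated together with a correlation of 0.135 over genes, but 2 pairs do not show pairing, and the cause was not tested.

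The interaction count (2) was 16 on unscaled TPM, where the median interaction shifted to -0.25, 5 with a pseudocount of 5, 1 without a filter, 9 without trend, 0 with the replicate block and 0 to 2051 leaving out 1 library. The 3477 genes higher in both were within 1.5 times of that count under every alternative run. The 3054 lower in both were 3897 to 4918 leaving out 1 library, where fewer libraries must be cleared. On unscaled TPM 2104 genes were lower and 3322 higher in both, so the share of lower genes depends on the scaling.

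Unscaled TPM moved the median of all genes from -0.02 to 0.06. Under unscaled TPM and without a filter, Cox7a2l (-0.03) turned to 0.0616 and 0.00564, and mt-Co1 (-0.02) to 0.0740 and 0.0175. Leaving out 1 library turned 13 named genes that overlapped between groups: Bbc3 spanned -1.97 to 0.0901, Ier3 -0.58 to 0.27, Top2a -0.71 to 0.18, Cox7a2l -0.12 to 0.0427, Mrc1 -0.64 to 0.10, Ccne2 -0.89 to 0.15, Ermap -0.70 to 1.58, Klrd1 -0.54 to 0.40, Icam1 -0.11 to 0.60, H2-DMa -0.78 to 0.42, Hoxa9 -0.000682 to 1.24, Chil3 -0.58 to 0.83 and mt-Co1 -0.18 to 0.14. No list median changed sign under unscaled TPM or median of ratios scaling; under a 5 TPM filter the medians of the immediate early, RUNX family and BCL2 family lists were -0.08, -0.0040 and -0.0014. Depth is unknown, so low levels carry no counting error here.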

Other observations

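Several genes outside the named set and the lists had small p in the 4 libraries and are given as values only, chosen after they were seen. Alox5, the lipoxygenase of leukotriene synthesis, had 27.2 and 25.5 TPM in double mutant HSPC, against 90.7 and 85.7 TPM in RUNX1 mutant HSPC, and 85.3 and 73.7 TPM in CBL mutant against 68.1 and 60.0 TPM in wild-type HSPC. Upp1, a uridine phosphorylase, had 0.636 and 0.165 TPM against 7.74 and 6.55 TPM in RUNX1 mutant HSPC. Optn, an autophagy receptor, had 8.35 and 7.16 TPM against 31.3 and 19.1 TPM in RUNX1 mutant HSPC, and Ccng2, a cyclin of growth-arrested cells, had 16.4 and 18.2 TPM against 53.7 and 45.1 TPM in RUNX1 mutant HSPC. Higher in the double mutant were Snhg3, a host gene of small nucleolar RNAs, at 465 and 434 TPM against 183 and 141 TPM in RUNX1 mutant HSPC, and Mif, a cytokine, at 731 and 771 TPM against 315 and 231 TPM in RUNX1 mutant HSPC. Lrp1, an endocytic receptor of macrophages, had 46.1 and 34.6 TPM against 15.9 and 11.6 TPM in RUNX1 mutant HSPC, and Ifitm7 had 9.73 and 9.26 TPM against 1.02 and 0.701 TPM in RUNX1 mutant HSPC, the opposite order of Ifitm1. For each of these the groups did not overlap, as for 54.9% of all genes, and the adjusted p was 0.160.

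The remaining lists are given by their counts among genes that passed the level filter, beside 29.2% higher and 25.7% lower in both over all genes. Of 8 T and natural killer cell genes 5 were lower in both and none higher, with a median log2 difference of -0.62; Nkg7, a cytotoxic granule protein, had 9.29 and 9.25 TPM in double mutant and 28.7 and 97.2 TPM in RUNX1 mutant HSPC. Of 10 HOX, MEIS and PBX genes 1 was higher and 5 lower in both, with a median of -0.31, and Hoxb4 had 4.45 and 4.81 TPM in double mutant and 8.72 and 7.12 TPM in RUNX1 mutant HSPC. Of 19 myeloid transcription factors 2 were higher and 7 lower in both (median -0.35), and of 9 genes of the RUNX family and its partners 2 were higher and 3 lower (median 0.03, or -0.35 without RUNX1 mutant library 2, -0.10 without library 1 and -0.08 without double mutant library 2). Of 10 MHC class II and dendritic genes 2 were higher and 1 lower in both, with a median of 0.56, or -0.12 without double mutant library 1; H2-Aa had 100.4 and 44.6 TPM in double mutant and 29.3 and 36.6 TPM in RUNX1 mutant HSPC. Of 12 mast cell, basophil and eosinophil genes 3 were lower in both and none higher (median -0.20, or 0.50 without RUNX1 mutant library 2), and of 12 B lineage genes 2 were higher and 1 lower (median -0.27, or 0.19 without double mutant library 2).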
